A study of Mus musculus with 18 samples.

Results

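Basal-end urothelial cells are the bladder lining cells with the lowest share of uroplakin transcripts that also hold Krt5, and 1764 of them were found among 22726 barcodes of 5 whole-bladder single-cell libraries. A barcode counted as urothelial when it held at least 500 UMIs (unique molecular identifiers, each standing for 1 captured RNA molecule) and at least 1% of them came from a panel of 13 genes: Krt5, Krt15, Krt7, Krt8, Krt18, Krt19, Epcam, Sfn, Perp, Upk1a, Upk1b, Upk2 and Upk3a. That gave 7882 urothelial cells. Basal-end cells were chosen by measured values: within each library the urothelial cells were ordered by the summed share of UMIs from Upk1a, Upk1b, Upk2 and Upk3a, the lowest 25% were taken, and those with at least 1 Krt5 UMI were kept. The other 6118 urothelial cells were the comparison, and 3939 of them, from the second and the third of 4 equal bins of uroplakin share, served as a closer one.

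The libraries came from C57BL/6 mice for which the labels give no genotype or treatment, and each pooled several animals. They were made from 3 males of 22 months, 3 males of 3 months, 2 females with 2 males of 12 months (2 pools), and 2 females with 2 males of 24 months. Values below follow that order. In the order given, 282 of 1287, 291 of 1589, 533 of 2243, 190 of 788 and 468 of 1975 urothelial cells were basal-end. Pools of animals are the replicates, so the spread between libraries is a spread between pools. A single library of nuclei (12 months, 2 females and 2 males) and a single library of detrusor-enriched whole bladder cells (14 months, 2 females and 2 males) were read with the same rule.

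The urothelium is a layered epithelium that seals the bladder against urine. Basal cells sit on the basement membrane, are held there by hemidesmosomes, and are known for the keratins Krt5 and Krt14 and the transcription factor Trp63. Intermediate cells lie above them, and umbrella cells face the urine with plaques built from uroplakins. Trp63 is required for the formation of the layered epithelium, and basal and intermediate cells renew the lining after injury.

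The libraries differed in depth and in make-up. Basal-end cells held a median of 3836.5 and 2767 UMIs in the male libraries and 11842, 14945.5 and 11232 in the mixed-sex ones, against 4271, 3293, 14520, 18789.5 and 13472 in the other urothelial cells. The 2 male tables carry barcodes of 14 bases and hold no mitochondrial UMIs, while the 3 mixed-sex tables carry barcodes of 16 bases. Sex mix and these technical differences therefore cannot be told apart. The male libraries shared 64 barcodes (1.00% of the smaller), and no other pair of the 5 shared more than 12. Markers of other cell types (fibroblast, muscle, endothelial, immune, Schwann, mesothelial and erythroid genes) could reach or pass the panel. They did so in 38, 21, 6, 2 and 3 of 282, 291, 533, 190 and 468 basal-end cells. Of 1005, 1298, 1710, 598 and 1507 other urothelial cells they did so in 85, 40, 1, 1 and 4. The share was larger in basal-end cells in all 5 libraries. A doublet score marked 15.96%, 12.03%, 2.06%, 1.58% and 2.56% of basal-end cells and 9.15%, 6.09%, 3.16%, 0.502% and 3.45% of the others, so marked cells were a larger share of basal-end cells in both male libraries and the second 12-month pool.

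The values that chose the cells are a description. The limit of the lowest 25% lay at 0.299%, 0.313%, 0.291%, 0.309% and 0.232% of UMIs from the 4 uroplakins. The last cell inside held 0.299%, 0.313%, 0.291%, 0.309% and 0.232%, and the first outside 0.299%, 0.313%, 0.291%, 0.309% and 0.233%, so no gap separated them. Krt15, a basal keratin in the panel, stood at 8845, 8573, 5619, 5163 and 4553 CPM (counts scaled to the same fixed total of UMIs in each class, here over all genes) in basal-end cells and at 6434, 6316, 3182, 2479 and 2826 in the others. Krt5 stood at 964, 911, 476, 687 and 493 CPM against 759, 555, 324, 421 and 337.

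The Krt5 condition was met by most urothelial cells of the lowest and of the top bin. It dropped 40 of 322, 107 of 398, 28 of 561, 7 of 197 and 26 of 494 cells of the lowest bin, the largest share in the 3-month males. A Krt5 UMI was present in 87.6%, 73.1%, 95.01%, 96.4% and 94.7% of the lowest bin and in 85.4%, 68.0%, 90.4%, 93.4% and 86.6% of the highest. Fibroblast-rich barcodes, which should lack Krt5, held one in 5.27%, 2.86%, 16.4%, 10.5% and 14.3%, at median depths of 2398.5, 1645, 5606.5, 6139 and 5260 UMIs. With every cell thinned to 1000 UMIs, which left out 6, 47, 0, 0 and 0 cells of the lowest bin as too shallow, the shares were 54.4%, 48.4%, 37.8%, 45.7% and 38.7% in the lowest bin. They were 52.0%, 41.9%, 23.4%, 26.4% and 22.1% in the highest, and at most 3.23% in fibroblast-rich barcodes. The basal-end cells are therefore the low-uroplakin end of a Krt5-bearing population. As a share of urothelial cells they made up 21.9% (exact 95% binomial interval 19.7 to 24.3), 18.3% (16.4 to 20.3), 23.8% (22.0 to 25.6), 24.1% (21.2 to 27.3) and 23.7% (21.8 to 25.6), a share that the rule caps at 25%. The intervals cover counting error only.

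Most tested basal urothelium markers that the rule did not use were higher in basal-end cells. The marker list was chosen with earlier results of these data known, so it is not independent support for the label. UMIs were summed over basal-end cells and over other urothelial cells of each library, and the sums were compared with edgeR's quasi-likelihood test with the library as a block. Of 12037 genes tested, 2700 (22.4%) had an adjusted p under 0.05, 1390 higher (11.5%) and 1310 lower (10.9%) in basal-end cells. Among them 218 were more than 2-fold higher and 202 more than 2-fold lower, and the median log2 fold change of all genes was 0.02. Without the first 12-month pool 1707 genes were called, without the 24-month pool 1744, and in the 2 male libraries alone 836. Unless called unscaled, levels from here on are CPM scaled by TMM, edgeR's correction for library composition, with the 13 panel genes and mitochondrial genes left out of the total. Of 12 basal urothelium markers 2 (Krt5 and Krt15) were in the rule and 9 of the remaining 10 passed the filter on low counts. Of those 9, 8 rose and 0 fell, with a median log2 fold change of 0.95. In the 2 male libraries alone 7 of the 8 could be fitted and 4 were called, in the 3 mixed-sex libraries alone 8 were called, and with a 2% panel limit or without the 24-month pool 6 of 7 fitted.

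Trp63, the master regulator of stratified epithelium, was at 171, 245, 229, 193 and 252 CPM in basal-end cells and at 152, 208, 172, 105 and 194 CPM in the others. It was higher in all 5 libraries, by 0.42 ± 0.08 (SE) on the log2 scale with an adjusted p of 0.00057, and the ranges of the classes overlapped. The collagen of hemidesmosomes, Col17a1, stood at 26.3, 46.6, 28.6, 21.3 and 37.1 CPM against 9.20, 16.02, 6.44, 3.23 and 6.70 CPM. Every basal-end value lay above every other value for this gene (log2 fold change 2.11 ± 0.15, adjusted p = 2.2e-10). Krt14, the keratin of a rarer basal subset, was at 13.1, 13.6, 5.38, 4.25 and 2.25 CPM against 5.37, 0.75, 0.82, 0.43 and 0.12 CPM (log2 fold change 2.65 ± 0.37, adjusted p = 7.2e-06).

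Krt14 rested on 85 UMIs over all basal-end cells and 55 over all others, so most basal-end cells held none. Ngfr, a nerve growth factor receptor used to mark basal cells, rested on 27 and 10 UMIs and was higher in 4 of 5 libraries (log2 fold change 3.27 ± 0.65). Cd44, a hyaluronan receptor, and Cdh3, P-cadherin, rose by 0.61 ± 0.08 and 1.49 ± 0.33 on the log2 scale. Shh, the Hedgehog ligand made by basal urothelium, did not pass: 75.6, 144, 142, 149 and 150 CPM stood against 90.7, 133, 130, 130 and 137 CPM (adjusted p = 0.32). Shh was higher in 4 of 5 libraries and its 22-month male value was lower.

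**Figure D1:**
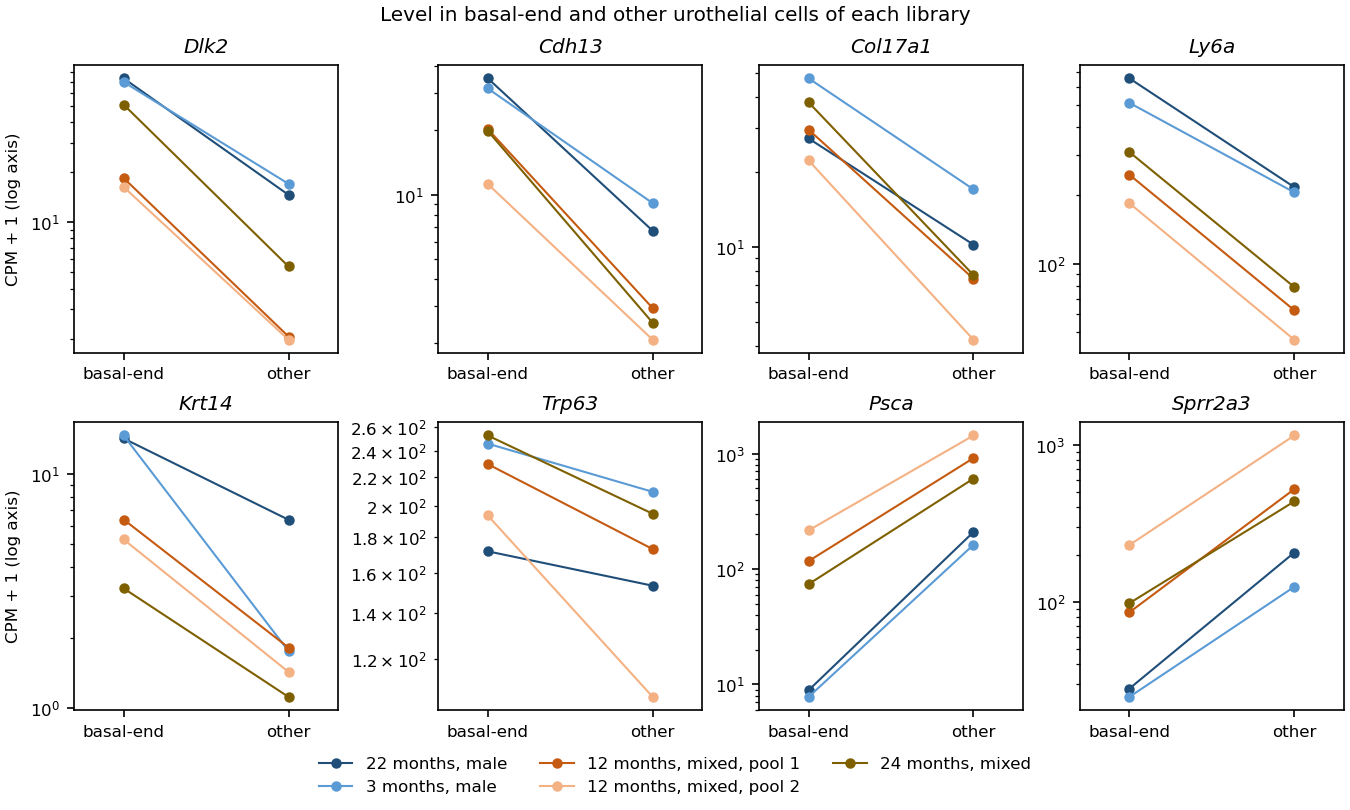
Level of 8 genes (CPM + 1, log axis) in basal-end and in other urothelial cells, 1 line per library. Dlk2, Cdh13, Col17a1, Ly6a, Krt14 and Trp63 fall and Psca and Sprr2a3 rise from left to right in all 5 libraries.

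Genes of the anchor to the basement membrane rose together. Of 20 hemidesmosome and basement membrane genes 18 were tested, 14 rose and 0 fell, beside 11.5% higher and 10.9% lower over all genes. Their median log2 fold change was 0.42 beside 0.02 for all genes. Itga6, Itgb4 and Col17a1 are also among the basal markers above, so the lists are not independent. The integrin pair of the hemidesmosome, Itga6 and Itgb4, rose by 0.68 ± 0.07 and 0.95 ± 0.08 on the log2 scale. The laminin receptor subunit Itga3 was at 56.5, 17.8, 38.2, 92.7 and 50.6 CPM against 18.8, 10.6, 14.0, 26.6 and 15.6 CPM, a log2 fold change of 1.58 ± 0.10. The plakins Dst and Plec, which tie hemidesmosomes to keratin, rose by 0.61 ± 0.07 and 0.35 ± 0.07.

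The laminin chains Lama3 and Lamb3 rose by 0.41 ± 0.13 and 0.24 ± 0.08 on the log2 scale. Npnt, a matrix ligand of integrins, rose by 1.58 ± 0.27 from a mean of 2.0 to 6.4 CPM. Lamc1 (0.28 ± 0.12), Nid1 (0.22 ± 0.32), Col4a5 (0.16 ± 0.13) and Col4a6 (-0.19 ± 0.16) did not pass. With DESeq2 in place of edgeR 11 of the 14 calls were made, and in the 3 mixed-sex libraries alone all 14. In the 2 male libraries alone 13 of the 14 could be fitted and 7 were called, none with the opposite sign.

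Cell-cell junction genes were split. Of 12 tested desmosome and adherens junction genes 3 rose (Cdh3, also a basal marker above, Pkp3 and Ctnna1) and 2 fell: E-cadherin, Cdh1, by 0.42 ± 0.07 and beta-catenin, Ctnnb1, by 0.27 ± 0.07 on the log2 scale. Without the 24-month pool 3 of these 5 calls were made. The desmosome core genes Dsp (0.02 ± 0.08) and Jup (-0.03 ± 0.06) did not pass. Of 17 tight junction genes 1 rose (Pard3, a polarity protein, 0.29 ± 0.07) and 6 fell, beside 11.5% higher and 10.9% lower over all genes.

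The falls were largest in claudins, the strand proteins of tight junctions. Cldn8 was at 12.5, 25.4, 17.6, 13.6 and 10.6 CPM against 36.2, 36.2, 49.9, 37.6 and 38.1 CPM, with no overlap, and Cldn23 fell by 0.98 ± 0.08 on the log2 scale. Cgn, Tjp3, Marveld2 and Marveld3 fell by between 0.40 and 0.51. Cldn4 (-0.08 ± 0.06) and Cldn7 (-0.11 ± 0.07) did not pass. Of the 7 tight junction calls 3 were made in the 2 male libraries alone, all 7 in the 3 mixed-sex ones, and 5 with a 2% panel limit, without the first 12-month pool or without the 24-month pool.

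Genes of the superficial urothelium outside the panel mostly fell. Of 24 such genes 21 were tested, 13 fell and 3 rose (10.9% and 11.5% over all genes), with a median log2 fold change of -0.31. The share of rises is near that of all genes. Snx31, a sorting nexin that carries uroplakins, was at 21.7, 33.0, 72.0, 91.0 and 66.8 CPM against 117, 121, 202, 242 and 190 CPM, so the classes did not overlap (log2 fold change -1.59 ± 0.09). The umbrella cell keratin Krt20 fell by 0.93 ± 0.11 and Upk3b, a uroplakin outside the rule, by 1.17 ± 0.11. Upk3bl, a uroplakin-like relative also outside the rule, went the other way: 99.9, 112, 49.0, 40.4 and 55.6 CPM in basal-end cells against 37.6, 38.3, 13.3, 9.58 and 15.96 CPM (log2 fold change 1.73 ± 0.09). Gprc5a and Tspan1 also rose, Tspan1 from a mean of 0.7 to 2.2 CPM.

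**Figure D2:**
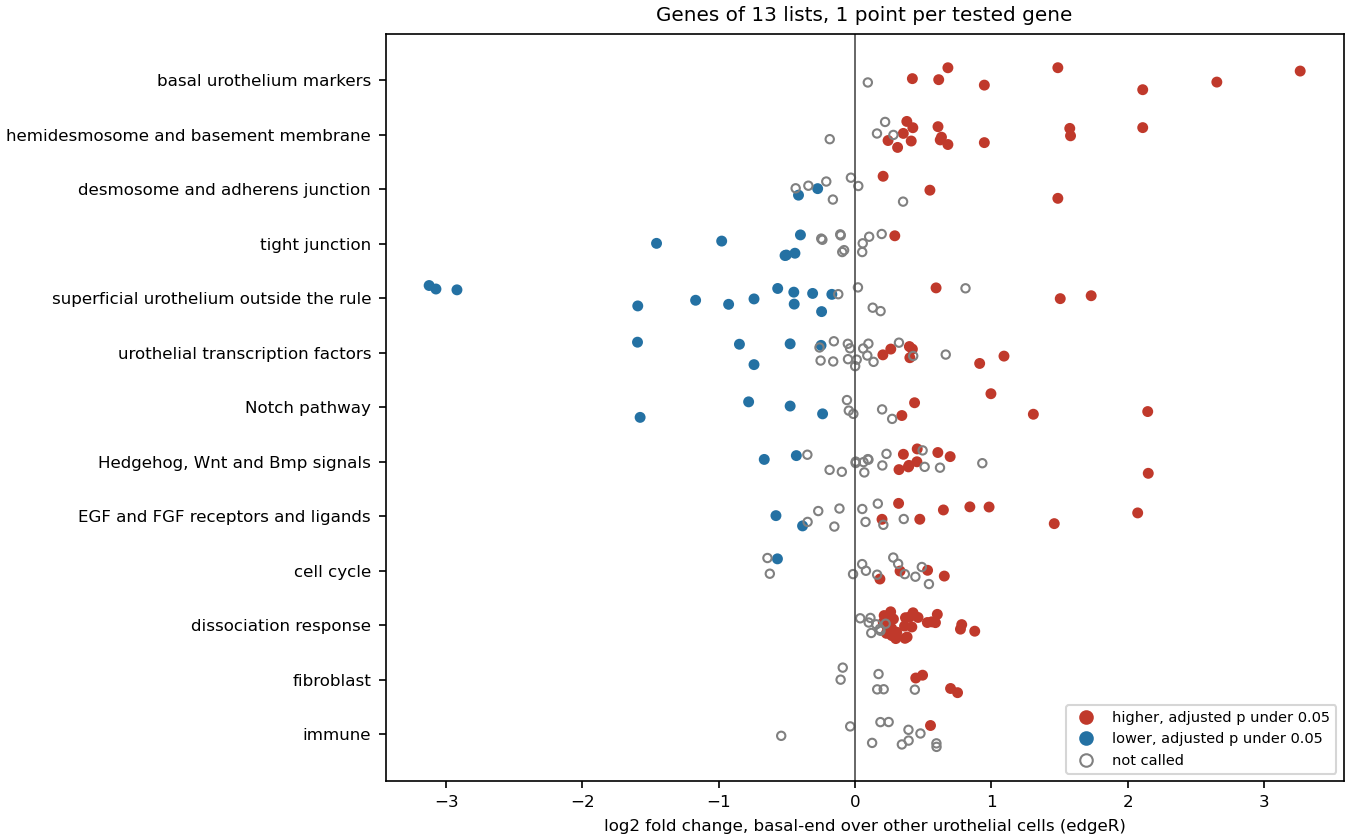
Log2 fold change of basal-end over other urothelial cells for every tested gene of 13 lists; filled points passed the test and open points did not. Hemidesmosome and dissociation response genes have no filled point below 0, and superficial genes have 13 below 0 and 3 above.

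Genes were named by size of change among those called with at least 20 CPM in the higher class and the same direction in all 5 libraries, so that direction is part of the choice. The 12 with the largest rise were Dlk2, Cdh13, Col17a1, Ly6a, Upk3bl, Rdx, Itga3, Ajuba, Aox3, Rgs10, Ehd2 and Ptges. Dlk2, a membrane protein of the Delta-like family, led at 72.3, 68.6, 17.4, 15.3 and 49.9 CPM against 13.6, 16.02, 1.06, 0.97 and 4.42 CPM (log2 fold change 3.00 ± 0.29, adjusted p = 0.00025). Its basal-end values spread widely between libraries and its lowest one fell below the highest of the others.

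Cdh13, a cadherin held to the membrane by a lipid anchor, stood at 34.2, 30.5, 19.3, 10.2 and 18.9 CPM against 5.75, 8.10, 1.92, 1.08 and 1.49 CPM. All basal-end values were above all others (log2 fold change 2.94 ± 0.21, adjusted p = 7.5e-10). Ly6a, the surface protein also called Sca-1, was at 653, 509, 245, 184 and 309 CPM against 216, 205, 61.4, 45.3 and 78.0 CPM (log2 fold change 1.78 ± 0.10). Fibroblasts and endothelium also carry Ly6a, and its within-library log2 ratio ran from 1.31 to 2.00 with the male libraries at the low end of its folds.

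Rdx, which links actin to the membrane, rose by 1.62 ± 0.16 on the log2 scale, and Ajuba, a junction-associated LIM protein, by 1.57 ± 0.16. Ptges, the enzyme that makes prostaglandin E2, was at 76.9, 63.6, 56.8, 59.1 and 69.9 CPM against 33.6, 35.1, 16.8, 15.5 and 25.2 CPM. Its classes did not overlap (log2 fold change 1.49 ± 0.11). Rgs10, a G protein regulator, rose by 1.55 ± 0.13, Ehd2, a caveola protein, by 1.53 ± 0.17 and Aox3, an aldehyde oxidase, by 1.55 ± 0.12.

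By the same rule the 12 largest falls were in Sprr2a2, Sprr2b, Psca, Sprr2a1, Fam25c, Sprr2a3, Cspg5, Snhg11, RP24-549B12.4, Arg2, Pdzk1ip1 and Defb1. Psca, a lipid-anchored surface antigen of urothelium, stood at 7.88, 6.78, 116, 215 and 72.9 CPM in basal-end cells against 208, 161, 914, 1435 and 606 CPM (log2 fold change -3.08 ± 0.22, adjusted p = 0.00057). The male libraries were low in both classes, so the ranges overlapped although every library fell. Arg2, the mitochondrial arginase, fell by 2.28 ± 0.15 and Defb1, an antimicrobial beta-defensin, by 2.23 ± 0.12 on the log2 scale. All 24 of these genes were called with the same sign with DESeq2, with doublets removed, with a 2% panel limit and in the 3 mixed-sex libraries alone. In the 2 male libraries alone 23 could be fitted and all 23 were called.

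Small proline-rich proteins of the Sprr2 family cross-link into the hardened envelope of barrier epithelia, and 4 of the 12 falls were in this family. Their genes are neighbours on mouse chromosome 3, and the sequences before their annotated starts are shown because they show how alike the copies are there. The 200 bases before the start of each are given 5′ to 3′ on the plus strand (RefSeq, GRCm38.p6), at chr3:92215635-92215834, chr3:92250447-92250646, chr3:92285104-92285303 and chr3:92316505-92316704. Capitals mark matches to 3 motifs searched on both strands. The letters of the TATA box were TATAAA. Those of the AP-1 site were TGANTCA, and those of the GATA site were TGATAA.
Sprr2a1: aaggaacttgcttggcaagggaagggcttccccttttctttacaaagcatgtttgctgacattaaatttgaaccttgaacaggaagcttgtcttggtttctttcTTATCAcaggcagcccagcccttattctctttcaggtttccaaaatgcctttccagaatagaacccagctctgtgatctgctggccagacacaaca
Sprr2a2: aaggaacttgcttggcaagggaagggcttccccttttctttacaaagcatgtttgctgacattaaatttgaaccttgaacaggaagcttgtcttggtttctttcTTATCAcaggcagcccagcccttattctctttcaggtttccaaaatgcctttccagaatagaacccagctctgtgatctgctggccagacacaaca
Sprr2a3: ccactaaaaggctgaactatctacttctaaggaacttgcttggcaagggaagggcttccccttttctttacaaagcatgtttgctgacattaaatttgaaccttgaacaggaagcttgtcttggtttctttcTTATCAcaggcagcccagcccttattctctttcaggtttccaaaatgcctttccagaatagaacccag
Sprr2b: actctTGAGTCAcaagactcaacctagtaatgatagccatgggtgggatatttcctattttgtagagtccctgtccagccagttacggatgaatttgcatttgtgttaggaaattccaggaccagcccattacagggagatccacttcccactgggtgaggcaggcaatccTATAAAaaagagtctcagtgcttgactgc

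Over the 250 bases before the start, Sprr2a1 and Sprr2a2 were identical at all 250. Sprr2a3 matched Sprr2a1 at all 222 compared bases once shifted by 28, so its annotated start lies 28 bases earlier in the shared sequence. Sprr2b matched Sprr2a1 at 74 of 225 bases at its best shift without gaps, 32.9%. The GATA match begins at position -96 in Sprr2a1 and Sprr2a2 and at -68 in Sprr2a3, counted from the start, and Sprr2b has an AP-1 match at -195 and a TATA match at -29. In the same 200-base window of all 32851 promoters, 6.18% hold the GATA letters, 5.48% the AP-1 letters and 9.96% the TATA box letters. A match is a description of letters only.

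Because the copies are this alike, how reads were shared among Sprr2a1, Sprr2a2 and Sprr2a3 is uncertain, and the sources used here do not give the counting rule for such reads. Sprr2a3 was at 26.9, 23.7, 84.6, 229 and 96.9 CPM in basal-end cells against 205, 124, 522, 1150 and 436 CPM in the others. Every library fell, with within-library log2 ratios from -2.88 to -2.16 (fitted -2.43 ± 0.08). Sprr2a1, Sprr2a2 and Sprr2b, the last more distinct before its start, fell by 2.92 ± 0.14, 3.27 ± 0.16 and 3.13 ± 0.16 on the log2 scale. Sprr2a2 had 0 UMIs in the basal-end cells of both male libraries, beside 9 and 20 in the others, and Sprr2a1 had 0 and 2 UMIs beside 35 and 52. Sprr1a, a related gene of the superficial list, fell by only 0.17 ± 0.06.

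Transcription factors of the urothelium moved in both directions. Of 28 tested, 7 rose and 5 fell, beside 11.5% higher and 10.9% lower over all genes, with a median log2 fold change of 0.04. Of these 12 calls 6 were made in the 2 male libraries alone, 10 in the 3 mixed-sex ones and 8 with a 2% panel limit. Klf4, a factor of epithelial barrier formation, was at 299, 191, 458, 585 and 416 CPM against 150, 112, 168, 291 and 195 CPM (log2 fold change 1.09 ± 0.07), higher in all 5 libraries. Sox2 rose by 0.91 ± 0.20 from a mean of 4.0 to 7.9 CPM, and Klf5, Stat3, Sox4 and Sox15 rose by between 0.20 and 0.40. Elf5, a factor of secretory epithelia, fell by 1.60 ± 0.18. Grhl3, which is needed for umbrella cells, and Zfp750, a differentiation factor downstream of Trp63 in skin, fell by 0.74 ± 0.10 and 0.85 ± 0.09. Gata3 fell by 0.25 ± 0.06, while Pparg (0.00 ± 0.06), Foxa1 (-0.04 ± 0.06) and Elf3 (-0.05 ± 0.09), regulators of luminal identity, did not pass.

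Notch signalling runs between neighbouring cells: ligands of the Jagged and Delta families on one cell activate Notch receptors on the next, and targets such as Hes1 and Nrarp are switched on there. Of 14 tested genes of the pathway 5 rose and 4 fell (11.5% and 10.9% over all genes), with a median log2 fold change of 0.09 beside 0.02 for all genes. The ligand Dll1 stood at 10.5, 8.47, 10.4, 4.25 and 8.55 CPM in basal-end cells against 1.73, 3.96, 1.59, 1.40 and 1.91 CPM, with no overlap (log2 fold change 2.15 ± 0.25, 130 and 108 UMIs in all). The ligand Jag2 was at 21.7, 17.8, 20.2, 14.0 and 23.4 CPM against 13.8, 14.9, 7.98, 6.56 and 10.9 CPM (1.00 ± 0.14). Lfng, a fringe enzyme that changes which ligands Notch responds to, rose by 1.31 ± 0.21.

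Jag1 (0.34 ± 0.10) and Rfng (0.44 ± 0.16, adjusted p = 0.047) also rose. Jag1 was higher in 3 of 5 libraries and had a log2 fold change of -0.11 in the 2 male libraries alone. Of the receptors and targets 4 fell. Notch3 was at 5.26, 1.69, 13.2, 21.7 and 11.7 CPM against 15.1, 11.7, 21.5, 25.9 and 22.0 CPM (-0.78 ± 0.16), and Notch1 fell by 0.24 ± 0.07.

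The feedback target Nrarp was at 13.1, 11.9, 34.5, 28.9 and 26.8 CPM against 87.0, 96.5, 89.6, 43.3 and 79.0 CPM, so the classes did not overlap (log2 fold change -1.58 ± 0.30, adjusted p = 0.024). Hes1 was at 251, 292, 247, 281 and 363 CPM against 345, 502, 422, 287 and 462 CPM (-0.48 ± 0.10, adjusted p = 0.0078), lower in all 5 libraries and almost equal in the second 12-month pool. Notch2 (-0.06 ± 0.16) and Rbpj (0.20 ± 0.14) did not pass. With a 2% panel limit 6 of the 9 calls were made, with DESeq2 7, and without the 24-month pool 5.

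**Figure D3:**
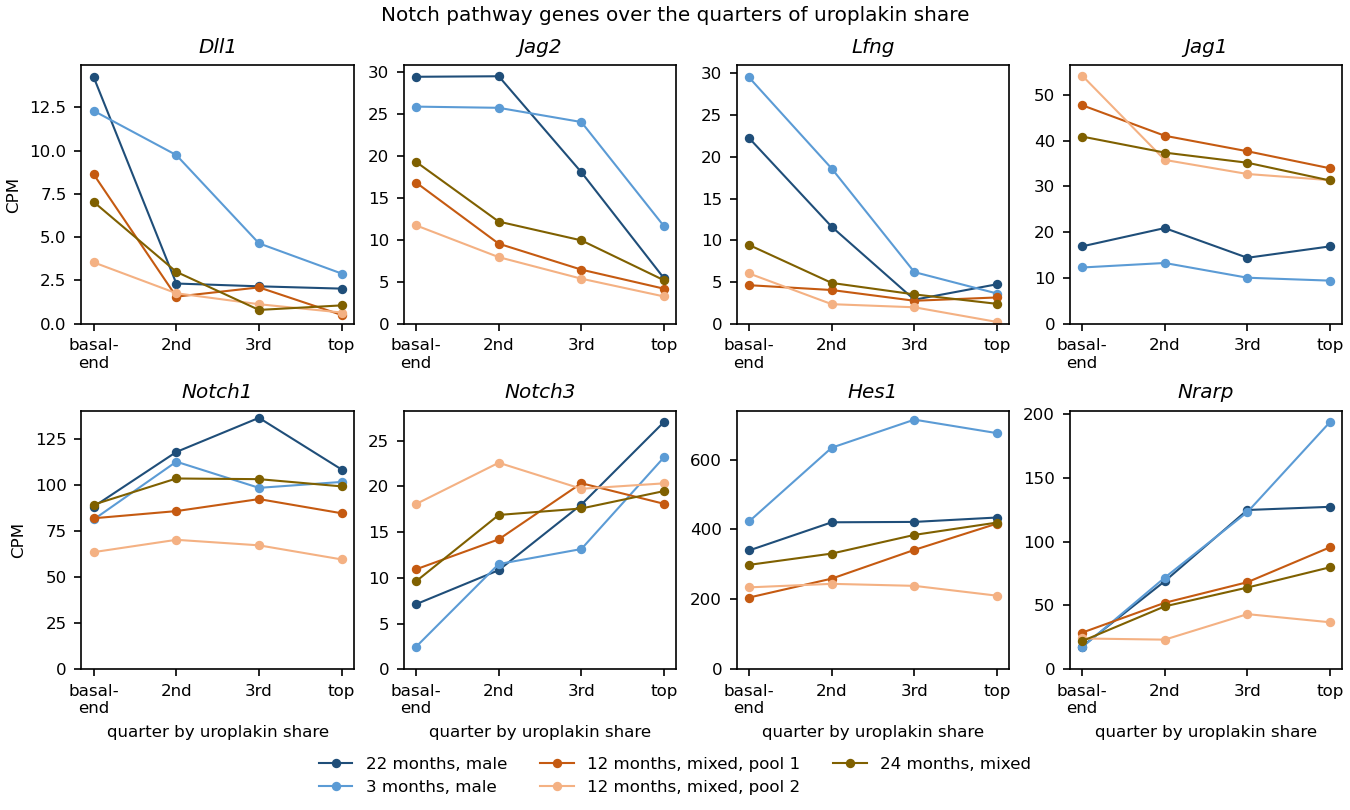
CPM (unscaled) of 8 Notch pathway genes in basal-end cells and in the second, the third and the top bin of uroplakin share, 1 line per library. Jag2 falls at every step in 4 libraries and Dll1 and Lfng in 3, while Nrarp rises at every step in 4 and Hes1 and Notch3 in 3.

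The ordered bins describe how these levels ran with uroplakin share, with no test, since that share set the order. The position of these cells in the lining was not measured. Over the 4 levels from basal-end cells to the top bin, Col17a1, Cdh13, Ly6a, Upk3bl, Itga3, Klf4, Wnt10a, Id1, Id3 and Ccnd2 fell at every step in all 5 libraries. Psca, Snx31, Krt20 and Cldn23 rose at every step in all 5. The levels by bin are unscaled CPM and so differ from the TMM-scaled ones above. Col17a1 averaged 35.0 ± 19.4 CPM (unscaled, SD, n = 5 libraries) in basal-end cells, 16.2 ± 10.8 in the second bin, 9.04 ± 8.92 in the third and 2.02 ± 1.75 in the top bin. Trp63 averaged 229 ± 75.3, 191 ± 79.0, 166 ± 60.9 and 152 ± 67.5 CPM (unscaled) over the same steps, a shallow slope within a wide spread. Krt14 averaged 9.47 ± 8.54 CPM (unscaled) in basal-end cells and 1.51 ± 1.497, 0.440 ± 0.285 and 0.303 ± 0.296 CPM in the others, a fall at each step of the mean.

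Against the second and the third bin alone, with the top bin left out, 1768 of 11878 genes (14.9%) were called, 855 higher (7.2%) and 913 lower (7.69%). This comparison shares the basal-end cells with the first. Without the first 12-month pool 1107 genes were called and without the 24-month pool 1131. Hemidesmosome and basement membrane genes gave 11 higher and 0 lower of 18, superficial genes 2 higher and 11 lower of 21, and Notch genes 4 higher and 4 lower of 14.

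Among genes with at least 20 CPM in the higher class and 1 direction in all 5 libraries, the largest rises were Dlk2 (2.74 ± 0.18), Cdh13 (2.58 ± 0.18), Col17a1 (1.63 ± 0.14), Ly6a (1.49 ± 0.09) and Ajuba (1.35 ± 0.16) on the log2 scale. By the same rule the largest falls were Sprr2b (-2.52 ± 0.16), Sprr2a1 (-2.20 ± 0.14), Psca (-2.00 ± 0.15), RP24-549B12.4 (-1.92 ± 0.10) and Fam25c (-1.78 ± 0.11). DESeq2 called 974 genes in this comparison.

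Hedgehog, Wnt and Bmp genes gave 9 rises and 2 falls of 26 tested (11.5% and 10.9% over all genes), with a median log2 fold change of 0.28. Wnt10a, a secreted Wnt ligand, was at 22.3, 22.0, 7.43, 4.25 and 7.87 CPM against 6.14, 6.03, 1.20, 0.97 and 1.61 CPM (log2 fold change 2.15 ± 0.21, 145 and 125 UMIs). Every library had more in basal-end cells. Wnt4 rose by 0.32 ± 0.09, while Wnt5a (-0.10 ± 0.07) and Wnt7b (0.01 ± 0.12) did not pass.

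Among Bmp genes the ligand Bmp4 rose by 0.61 ± 0.16 and the ligands Bmp2 and Bmp7 fell by 0.67 ± 0.09 and 0.43 ± 0.08. Bmp4 rested on 72, 25, 24, 4 and 33 UMIs in basal-end cells and on 176, 58, 67, 16 and 72 in the others. Against the second and the third bin Bmp4 did not pass (log2 fold change 0.47). The Hedgehog, Wnt and Bmp list gave 4 higher and 2 lower of 25 there, beside 7.2% and 7.69% of all genes. The inhibitor Smad7 and the targets Id1 and Id3 rose by 0.70 ± 0.10, 0.39 ± 0.06 and 0.46 ± 0.06. The Hedgehog transducer Smo rose by 0.45 ± 0.14, and its target Gli1 was near the detection limit at a mean of 1.6 and 1.4 CPM. In the 2 male libraries alone 4 of the 11 calls were made, in the 3 mixed-sex libraries alone 10, with a 2% panel limit 6, and without the 24-month pool 6.

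Growth factor genes gave 8 rises and 2 falls of 19 tested (11.5% and 10.9% over all genes), with a median log2 fold change of 0.20. The share of falls is thus near that of all genes. Nrg1, a ligand of Erbb receptors, rose by 2.07 ± 0.29 on 105 and 89 UMIs, at 3.94, 1.69, 5.38, 3.83 and 13.3 CPM against 0.77, 1.70, 1.15, 1.08 and 2.51 CPM. It was higher in 4 of 5 libraries and almost equal in the 3-month males. Its receptor Erbb3 and the partner receptor Erbb2 fell by 0.39 ± 0.10 and 0.58 ± 0.12 on the log2 scale.

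Hbegf, a ligand of the EGF receptor, was at 652, 221, 1128, 1294 and 1036 CPM against 491, 163, 578, 864 and 620 CPM (0.65 ± 0.07), higher in all 5 libraries. The receptor Fgfr2 rose by 0.84 ± 0.10 and the binding proteins Igfbp3 and Igfbp5 by 1.46 ± 0.20 and 0.98 ± 0.10. Egfr (0.05 ± 0.16) and Fgfr3 (-0.15 ± 0.12) did not pass.

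Cell cycle genes gave 4 rises and 1 fall of 17 tested, beside 11.5% higher and 10.9% lower over all genes. Ccnd1 (0.53 ± 0.08), Ccnd2 (0.65 ± 0.06), Stmn1 (0.33 ± 0.06) and Hmgb2 (0.18 ± 0.06) rose and Gmnn, the licensing inhibitor, fell by 0.57 ± 0.16. Ccnd2, a cyclin of the step into the cycle, was at 176, 166, 209, 189 and 246 CPM against 115, 110, 136, 122 and 144 CPM, with no overlap. Of the genes of S phase and mitosis, Top2a averaged 2.0 and 1.4 CPM and did not pass (0.44 ± 0.39), nor did Pcna (0.08 ± 0.08), Mcm2 (0.28 ± 0.19) or Tyms (0.05 ± 0.09). Mki67 did not pass the filter on low counts. With DESeq2 3 of the 5 calls were made, without the 24-month pool 3, and in the 2 male libraries alone 1.

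Genes of the response to tissue dissociation were higher in basal-end cells. Immediate early and heat shock genes are switched on while tissue is digested, and 27 of 35 tested rose and 0 fell. Over all genes 11.5% were called higher and 10.9% lower. The median log2 fold change was 0.28 in this list beside 0.02 for all genes. Klf2 was at 669, 489, 92.3, 70.1 and 87.5 CPM against 333, 257, 57.9, 32.4 and 52.6 CPM (0.88 ± 0.06). Socs3, a cytokine feedback inhibitor, and Fosl1, an AP-1 subunit, rose by 0.78 ± 0.07 and 0.77 ± 0.08, and Fos and Jun by 0.40 ± 0.05 and 0.21 ± 0.06. Rises were thus all under 2-fold. In the male and in the mixed-sex libraries alone 19 and 21 of the 27 were called, and Dnajb4 had a log2 fold change of -0.0341 in the males. With a 2% panel limit 14 of 27 were called, and Egr1, Hspa1a and Zfp36 had log2 fold changes of -0.17, -0.079 and -0.0041.

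Some markers of other cell types also differed between the classes, beside 11.5% of all genes higher and 10.9% lower. Sums of markers are in unscaled CPM. The summed level of 10 fibroblast genes, all detected in every class, was 9319, 5052, 1078, 740 and 920 CPM (unscaled) in basal-end cells and 6957, 3619, 986, 717 and 923 CPM in the others. This sum was higher in basal-end cells of both male libraries and close to equal in the 24-month pool. Of the 10, Col1a1, Col1a2, Col3a1 and Dcn rose and 0 fell. Without the 3-month males or in the mixed-sex libraries alone 2 of the 4 were called, and 0 without cells rich in other-cell markers. With doublets removed none of the 4 was called, and Col1a1, Col1a2 and Col3a1 had log2 fold changes of -0.13, -0.019 and -0.21. The summed level of 14 immune genes was 1779, 1942, 321, 81.5 and 324 CPM (unscaled) against 1653, 701, 247, 90.04 and 223 CPM, with 0 to 3 of the 14 at 0. Of 12 tested immune genes 1 rose (Tyrobp), a share near that of all genes. Tyrobp was called in the 3 mixed-sex libraries alone and not in the 2 male libraries alone, nor with doublets removed.

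The summed level of 10 smooth muscle and pericyte genes was 700.4, 98.1, 57.3, 26.1 and 54.0 CPM (unscaled) against 376, 81.3, 79.7, 79.1 and 91.4 CPM, with 0 to 2 of them at 0. Rgs5 held 1322, 693 and 832 UMIs in the others of the mixed-sex libraries, a large part of those sums. Of the 10, Acta2, Myh11 and Myl9 rose and Rgs5 fell, beside 11.5% higher and 10.9% lower over all genes. The share of falls is near that of all genes. Acta2, smooth muscle actin, was at 198, 12.7, 22.6, 3.83 and 22.3 CPM against 116, 12.8, 8.03, 2.26 and 19.8 CPM, higher in 4 of 5 libraries. Of these 4 calls 1 was made without the 22-month males, 1 with DESeq2, 1 with doublets removed and 1 without cells rich in other-cell markers. Of 5 endothelial genes 1 rose (Lyve1, 20 and 15 UMIs), of 3 mesothelial genes 1 fell (Upk3b), and of 2 Schwann and 4 erythroid genes 0 were called. The part of these markers in the result was not tested beyond the removal of cells. Without the cells whose other-cell markers reached the panel 2741 genes were called, 2500 of them among the first 2700, and with doublets removed 2727 and 2454. Under each removal 14 of 14 hemidesmosome and basement membrane calls and 24 of 24 of the genes named for size of change were made.

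Basal-end cells of older and younger libraries were compared in a fit that also held a term for male or mixed-sex pools: 22 and 24 months (2 libraries) against 3, 12 and 12 months (3 libraries). With edgeR 0 of 10607 genes (0.0%) were called, 354 had an unadjusted p under 0.05, and DESeq2 gave 0 and 132. Dlk2 stood at 76.2, 71.8, 17.4, 15.8 and 50.4 CPM in this fit (older over younger 0.98 ± 0.29, adjusted p = 1.0), higher in the 24-month pool than in both 12-month pools but similar in the male libraries. Trp63 (-0.05 ± 0.20) and Col17a1 (0.08 ± 0.29) did not pass either. Leaving out 1 library gave 0 to 45 calls, the most without the 24-month pool, 12 without the first 12-month pool and 5 without either male library. Without the 24-month pool or the 22-month males the older group is 1 library, which is assumed to vary like the others.

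The contrast between basal-end and other cells was also set between ages, and 0 of 12037 genes (0.0%) were called, with 362 at an unadjusted p under 0.05 and 0 and 24 by DESeq2. Leaving out each library in turn gave 10, 14, 5, 5 and 48 calls, with the same limit for the first and the last. Psca had an older-minus-younger difference in contrast of -0.19 ± 0.12 and Trp63 of -0.17 ± 0.11.

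Between male and mixed-sex libraries the contrast differed for 232 of 12037 genes (1.93%), 28 higher (0.233%) and 204 lower (1.69%) in the males. Scaling mattered here: the median log2 difference of all genes was -0.06 with TMM and 0.01 with RLE size factors, which called 153 genes with 27.5% of them higher against 12.1%. DESeq2 called 5. Leaving out 1 library gave 123 to 420, with 420 without the 22-month males and 123 without the first 12-month pool. Without either male library (178 calls without the 3-month males) the male group is 1 library, which is assumed to vary like the others.

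Rgs5, a G protein regulator known from pericytes, had basal-end levels of 10.5, 8.47, 9.84, 12.3 and 6.97 CPM, with no gap between male and mixed-sex libraries. In the other urothelial cells it was at 8.24, 8.29, 63.5, 74.6 and 49.7 CPM, so the male libraries showed no fall and the mixed-sex ones a large fall (difference of contrasts 2.94 ± 0.41, adjusted p = 5.3e-06). Nrarp and Psca fell further in males, by 1.53 ± 0.28 and 1.68 ± 0.24 on the log2 scale. Sqle, an enzyme of sterol synthesis, had within-library log2 ratios of -1.51 and -1.80 in males and of -0.28, -0.57 and -0.23 in mixed-sex libraries. Baz1a, a chromatin remodelling subunit, fell in both male libraries (-0.81 and -1.09) and rose in the 3 mixed-sex ones (0.67, 0.28 and 0.38). The male ratios rest on few UMIs: basal-end cells of the 2 male libraries held 12 and 7 of Baz1a and 12 and 7 of Sqle. They held 12 and 8 UMIs of Psca and 20 and 14 of Nrarp.

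**Figure D4:**
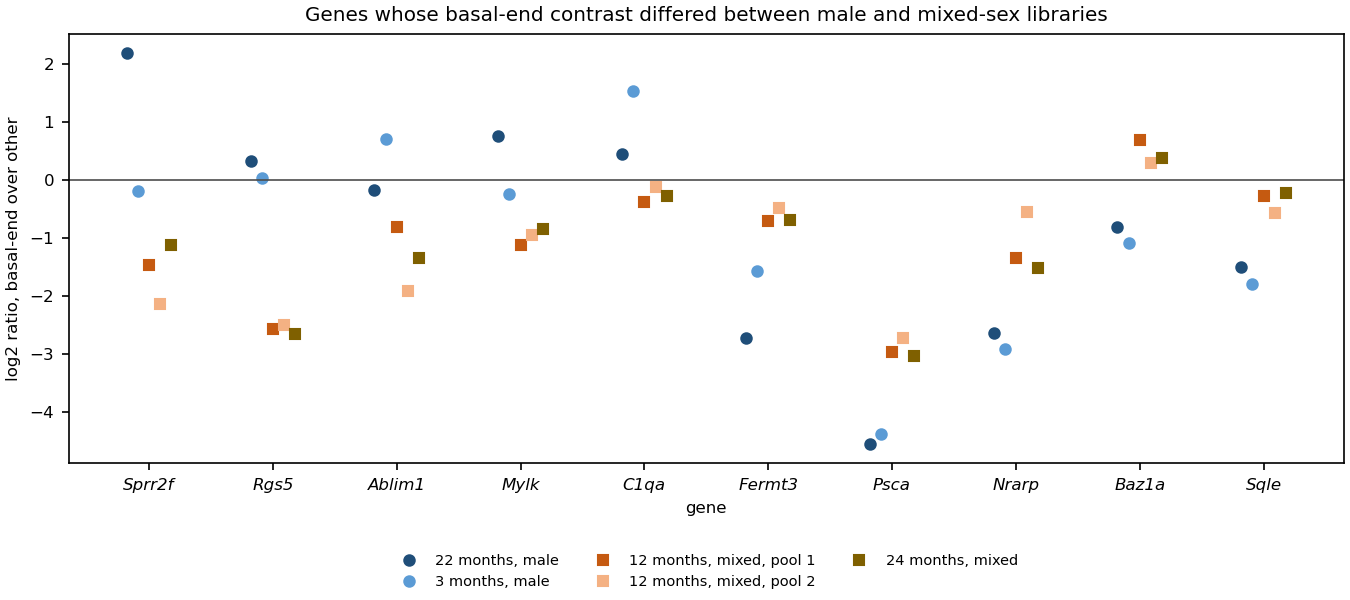
Log2 ratio of basal-end over other urothelial cells in each library (circles male, squares mixed-sex) for the 10 genes named from the test of the difference. The 2 circles and 3 squares do not overlap for any of them, which the choice of genes required.

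The detrusor-enriched library, which the test did not use, gave 123 basal-end of 1021 urothelial barcodes. Its basal-end cells had a median of 13314 UMIs and the others 715.5, and other-cell markers reached the panel in 46 and 522 barcodes. Of the genes called higher in whole-bladder basal-end cells and holding at least 20 UMIs, 1181 of 1306 (90.4%) were higher here. Of those called lower, 1191 of 1238 (96.2%) were lower. Among all 11076 genes with that many UMIs 4840 (43.7%) were higher.

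Levels in this library and in the nuclei are unscaled CPM. Dlk2 stood at 61.4 CPM in its basal-end cells and at 8.3 in the others (93 and 75 UMIs), Col17a1 at 116 and 22.8, and Krt14 at 23.1 and 4.6. Dll1 was at 21.1 and 2.3 CPM, Jag2 at 121 and 55.7, and Nrarp at 13.2 and 53.2. Psca was at 23.1 and 415 CPM, and Sprr2b had 0 UMIs beside 44. Lfng, with 8 and 36 UMIs, was at 5.3 and 4.0 CPM.

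The nuclei library gave 98 basal-end of 592 urothelial barcodes, at a median of 1551 and 1199.5 UMIs, and other-cell markers reached the panel in 23 of the 98 and in 166 of the 494 others. Of the genes called higher in cells with at least 20 UMIs here, 631 of 994 (63.5%) were higher, and of those called lower 721 of 1039 (69.4%) were lower, beside 3754 of all 7919 genes (47.4%) higher. Ly6a was at 166 and 54.7 CPM, Cdh13 at 34.2 and 16.4 and Trp63 at 773 and 666. Col17a1, with 14 and 54 UMIs, was at 68.5 and 59.1 CPM. Psca was at 171 and 555 CPM and Snhg11, a long non-coding RNA, at 108 and 876. Each of these is 1 library, so the values have no replicate check and no test.

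**Figure D5:**
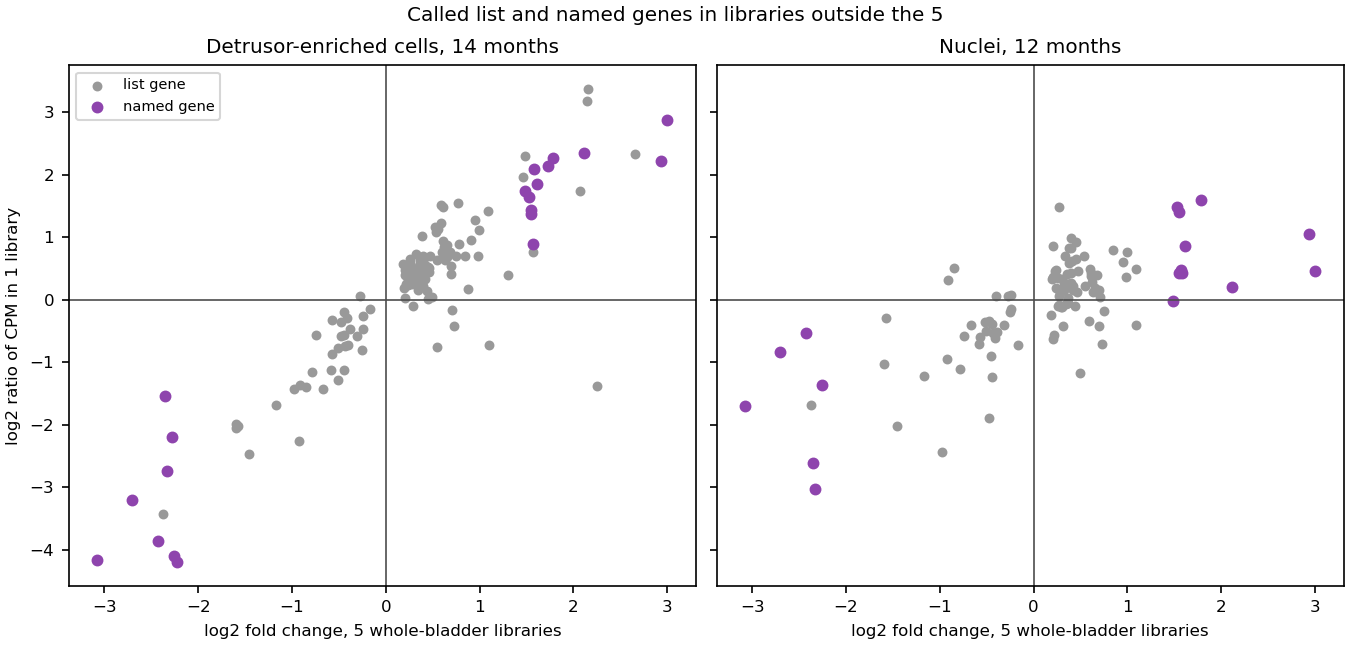
Log2 ratio of CPM in basal-end over other urothelial barcodes of the detrusor-enriched and nuclei libraries (y) against the log2 fold change in the 5 whole-bladder libraries (x), for called list genes (grey) and the 24 genes with the largest changes (purple) that held at least 20 UMIs and none at 0. The sign was the same for 134 of 141 genes in the detrusor-enriched library and for 90 of 113 in the nuclei.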

How the data were processed

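Per the labels, cells and nuclei were captured with 10x Chromium; the submitters' processing notes name Cell Ranger, bcl2fastq and mm10, with no versions. The deposited tables hold UMI counts per gene and barcode, whole numbers with no normalization, and 844, 582, 3764, 3990 and 3173 UMIs in the shallowest barcode of the 5 libraries. Totals were 25837771, 13281422, 40043778, 17397305 and 36008096 UMIs. The bulk, section and detrusor-only samples are not used here. Sums per library and class over the 27464 genes common to the 5 tables were tested with edgeR 4.0.16 (robust quasi-likelihood, TMM, filterByExpr, two-sided, Benjamini-Hochberg, threshold 0.05). Both classes of a library come from the same pool, so the library is the block. SE is the absolute log2 fold change over the square root of F. DESeq2 1.42.0 was an alternative. Doublets were scored with Scrublet in scanpy 1.11.5, and the top 0.8% per 1000 barcodes marked. Named genes are up to 12 with the largest rise and fall (5 in other tests) with an adjusted p under 0.05, at least 20 CPM in the higher class and 1 direction in all libraries (for male against mixed-sex, no overlap between the libraries of each kind instead), passing over predicted genes. Members, markers and lists were chosen with earlier results of these data known. The comparison with other urothelial cells, the age test within basal-end cells and the age test of the contrast were checked on simulated data. In that order, 99%, 64% and 74% of genes given a log2 change of 1 were called, with 19, 24 and 5 false calls. Changes were given only to genes above a floor of mean UMIs per sum. Krt14, Ngfr, Dll1, Nrg1 and Wnt10a lie below that floor, so these rates do not cover such low genes. The comparison with the second and the third bin and that of male against mixed-sex libraries were not checked in this way. The labels do not say that pools were prepared on separate days. With the library as a block, p-values measure how the contrast within a pool varied over these pools. In the age test within basal-end cells they measure the spread between these pools. Cells were chosen and genes tested on the same UMIs. With each on a separate part of the UMIs, 1940 genes were called.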

Additional observations from a re-analysis of the deposited data

Results flagged for a closer look

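The contrast between basal-end and other urothelial cells differed between male and mixed-sex libraries for 232 genes by the interaction test. The 10 given here are the 5 largest differences in each direction among called genes with at least 20 CPM in the higher class. The choice also required no overlap between the libraries of each kind. So 10 is a limit set by the choice and not a count of genes without overlap. The difference (male minus mixed-sex, log2) was positive for Sprr2f at 3.58, Rgs5 at 2.94, Ablim1 at 1.60, Mylk at 1.40 and C1qa at 1.37. It was negative for Fermt3 at -1.86, Psca at -1.68, Nrarp at -1.53, Baz1a at -1.48 and Sqle at -1.46. Sprr2f rested on few UMIs in the males, at 5.26 and 0.85 CPM in basal-end cells. Male basal-end cells also held few UMIs of Fermt3 (4 and 4), Psca (12 and 8), Baz1a (12 and 7) and Sqle (12 and 7). C1qa, a macrophage gene, was at 63.7 and 65.3 CPM in male basal-end cells and at 5.01, 1.70 and 7.65 CPM in mixed-sex ones. In the other urothelial cells it was at 47.0 and 21.9 CPM in males and at 6.87, 1.94 and 9.57 CPM in mixed-sex libraries, so its level was higher in males in both classes. The difference between male and mixed-sex pools cannot be told apart from that between the barcode lengths and gene lists of their tables.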

How the results depend on the processing

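Over the alternatives run, 3206 values of single genes were recomputed. Of these, 2696 kept their side of the threshold and 470 kept the direction but lost the call. Another 22 gained it and 18 reversed. A reversal was counted only for a gene called in the main fit or in the alternative. A gene called in neither was counted as kept even where its sign changed. The planned 5% panel limit was not run because it left at most 1 basal-end cell in a mixed-sex library, and a 2% limit was chosen after seeing the data. Without the replicate block, which leaves the large differences between libraries in the error, 15 genes were called against other urothelial cells and 0 against the second and the third bin. Against other urothelial cells, the 2 male libraries alone gave 836 calls, and leaving out 1 library gave 1707 (without the first 12-month pool) to 3168, with 1744 without the 24-month pool. Against the second and the third bin, DESeq2 gave 974, the 2% limit 1080, and leaving out 1 library 1107 to 2061. For age, no filter on low counts gave 35 calls within basal-end cells and 5 for the contrast, the 2% limit gave 1 for the contrast, and leaving out 1 library gave 0 to 45 and 5 to 48. For male against mixed-sex libraries, DESeq2 gave 5, RLE size factors 153, and leaving out 1 library 123 to 420. The cause of these shifts was not tested. Reversed log2 fold changes were, with the 2% limit, Egr1 -0.17, Hspa1a -0.079, Zfp36 -0.0041, Col1a1 -0.12, Col1a2 -0.029, Col3a1 -0.17, Dcn -0.0303 and Myl9 -0.23. In the 2 male libraries alone they were Rgs5 0.22, Jag1 -0.11, Fzd6 -0.0426 and Dnajb4 -0.0341. Without cells rich in other-cell markers they were Acta2 -0.0797 and Tyrobp -0.0301, with doublets removed Col1a1 -0.13, Col1a2 -0.0193 and Col3a1 -0.21, and with the lowest 10% in place of 25% Myh11 -0.0851. Thinned to 1000 UMIs, basal-end cells were 16.1%, 14.2%, 12.7%, 14.5% and 13.2% of urothelial cells. In the detrusor-enriched library, 93.0% of higher genes were higher with no Krt5 condition. With the 2% limit 82.1% of higher and 87.6% of lower genes went the same way there, and 67.3% and 62.8% in nuclei, but that limit left 25 basal-end of 108 urothelial barcodes in the first library and 14 of 58, with 107 and 145 genes, in the nuclei. Depth limits low genes: Krt14, Ngfr, Dll1 and Wnt10a rest on at most 145 UMIs in basal-end cells.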

Other observations

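Cells of the lowest uroplakin bin with no Krt5 UMI, 40, 107, 28, 7 and 26 in the 5 libraries, were counted among the other urothelial cells. Their median depth was 2256, 2011, 7718.5, 7338 and 7425 UMIs, below that of basal-end cells in every library. In the 22-month males, 19 of the 40 had other-cell markers at or above the panel. Upk3b, which mesothelial cells also carry, was at 994 CPM (unscaled) in the 40 cells of the 22-month males and at 140, 71.2, 64.6 and 91.2 CPM in the other libraries. Krt14 was at 213 CPM in the same 40 cells, at 4.82 CPM in the 3-month males and at 0 in the 3 mixed-sex libraries.

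Rgs5 rose over the bins of uroplakin share in the mixed-sex libraries, from 8.17, 10.3 and 5.74 unscaled CPM in basal-end cells to 98.6, 107 and 74.6 in the top bin. In the males it was at 14.2 and 12.3 unscaled CPM in basal-end cells and at 14.2 and 21.0 in the top bin. In the detrusor-enriched library it was at 7.9 and 84.8 unscaled CPM in basal-end and other barcodes, and in nuclei at 53.8 and 173, where Acta2, a muscle gene, was at 787 and 1278. The cause was not tested.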
